A study of Citrus sinensis with 30 samples.

Results

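Cs9g17760, Cs9g17770, Cs9g17780 and Cs9g17790 are 4 genes with consecutive identifiers on chromosome 9 of sweet orange (Citrus sinensis), and they were chosen because all of them were higher in juice sacs of ‘Tarocco’ blood orange (TBO) than in those of ‘Bingtangcheng’ sweet orange (BTSO). They were found by name in the deposited expression table, which held 24179 genes, and all 4 were present. TBO is a variety that accumulates anthocyanin and keeps a high citrate content, and BTSO is a low-acid variety. Mature fruit of both were kept in cold storage in polyethylene bags, and juice sacs, the vesicles that make up the pulp, were taken from several fruit per group. Days after storage (DAS) are counted from day 0, and further samples were taken at 15, 30, 60 and 90 DAS. Each variety was sampled in triplicate on each day, so that the 10 groups comprise 30 RNA-seq libraries. Expression was given as FPKM, which scales fragments by transcript length and library size, so that levels can be compared between genes. Because the contrast between TBO and BTSO chose the genes, the values of that contrast are a description and carry no test. Storage within a variety and the spread among replicates were not used in the choice and were tested. The change of the variety difference over storage was tested too. It is formed from the differences between the varieties, so that it is not wholly independent of the choice.

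The 4 genes carry little functional annotation. Cs9g17780 was described as the ubiquitin-like-specific protease ESD4. In Arabidopsis, ESD4 is a protease that cuts the small ubiquitin-like modifier SUMO from its targets and matures the SUMO precursor, and its loss leads to early flowering. Sumoylation is a reversible tag on proteins, many of them nuclear, that changes their interactions and activity. Cs9g17790 was described as the uncharacterized protein LOC102624734, and its gene ontology terms included the nucleus and ubiquitin protein ligase activity, the step that attaches ubiquitin to proteins bound for the proteasome. Cs9g17760 and Cs9g17770 were described as isoforms X3 and X1 of the same uncharacterized protein, LOC102625311. None of the 4 genes had a KEGG entry.

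By these descriptions, 2 identifiers of the run stand for 1 RefSeq locus and are not separate genes. In the coordinates of the deposited table, whose citrus genome build is not given in the sources used here, Cs9g17760 lay on chromosome 9 from 16965734 to 16968920 and Cs9g17770 from 16969369 to 16970631, both on the minus strand and 448 bases apart. Cs9g17760 had 3 transcripts and Cs9g17770 had 1. The other 2 genes were listed as loci that the authors assembled, without coordinates. The locus of Cs9g17780 held 2 reference transcripts, and that of Cs9g17790 held 1 reference transcript and 4 assembled ones. The nearest listed identifiers on either side, Cs9g17750 (16950284 to 16951564) and Cs9g17800 (16983155 to 16983601), enclosed the run. A gap of 14169 bases lay between Cs9g17750 and Cs9g17760, and 12523 bases lay between Cs9g17770 and Cs9g17800, the stretch in which the identifiers place Cs9g17780 and Cs9g17790.

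RefSeq's annotation of another sweet orange assembly, DVS_A1.0, was used for names and gene order only. There LOC102624734 and LOC102625311 were direct neighbours. No gene lay between them there, whereas by its identifier Cs9g17780 falls between Cs9g17770 and Cs9g17790, and no counterpart of Cs9g17780 was identified in that annotation by name. Both lay within the span of a longer protein-coding gene, LOC102627030, as did the next gene, LOC102626556. No chromosome 9 row of the deposited table was described by the name LOC102627030 or LOC102626556. LOC102622119, which names the flanking Cs9g17710, was 5 places from LOC102624734. Whether the counting used the strand is not given in the sources used here, so that reads of overlapping genes in this region cannot be told apart.

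Estimated counts totalled 51894138 to 75833189 per library. Across genes, libraries of the same group had a Pearson r of 0.969 to 0.985 on the log2(FPKM + 1) scale. No marker is exclusive to juice sacs, but PH8 and PH4, acidity genes of this tissue, were present in all libraries. PH8 (Cs1g16150) had 30.1 to 61.4 FPKM in TBO libraries and 1.43 to 7.28 FPKM in BTSO libraries, and PH4 (Cs9g03070) had 13.7 to 28.2 FPKM in TBO and 0.531 to 3.03 FPKM in BTSO. Of 5 seed storage and oleosin genes, 3 reached an FPKM of 1 somewhere, and the 5 summed to 12.2 to 23.2 FPKM in TBO and 17.4 to 27.8 FPKM in BTSO. All 6 genes for chlorophyll a-b binding proteins, a sign of green tissue, reached that level, and summed to 14.8 to 32.4 FPKM in TBO and 14.6 to 40.2 FPKM in BTSO. The part of these genes in the results was not tested. In whole juice sacs, fewer cells of a type and less RNA per cell cannot be told apart.

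Cs9g17760 was present in both varieties, at a much higher level in TBO. At 0 DAS, Cs9g17760 had 4.03, 8.01 and 4.66 FPKM in TBO, against 0.979, 1.28 and 0.674 FPKM in BTSO. At 15 DAS, Cs9g17760 had 4.64, 4.69 and 6.06 FPKM in TBO and 0.346, 0.832 and 0.764 FPKM in BTSO. The lowest TBO library lay above the highest BTSO library on both days, although the second TBO replicate at 0 DAS stood well above the other 2 of its group. At 30 DAS, Cs9g17760 had 7.73, 8.50 and 6.43 FPKM in TBO and 1.02, 1.49 and 1.38 FPKM in BTSO. At 60 DAS, the 3 values were 9.42, 7.68 and 8.46 FPKM in TBO and 1.47, 1.01 and 1.20 FPKM in BTSO. At 90 DAS, they were 6.88, 7.74 and 8.37 FPKM in TBO and 0.913, 1.14 and 1.54 FPKM in BTSO. From 30 DAS on, every TBO library was above every TBO library of 15 DAS, and the varieties stayed apart. The ratio of the mean FPKM, TBO over BTSO, was smallest at 0 DAS (5.70) and largest at 15 DAS (7.93).

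Cs9g17770, the shorter model of the same RefSeq locus, was the lowest of the 4 genes. At 0 DAS, Cs9g17770 had 3.26, 4.38 and 2.96 FPKM in TBO, against 0.441, 0.699 and 0.588 FPKM in BTSO. At 15 DAS, Cs9g17770 had 2.74, 2.61 and 3.33 FPKM in TBO and 0.303, 0.520 and 0.517 FPKM in BTSO. At 30 DAS, Cs9g17770 had 4.40, 5.92 and 4.15 FPKM in TBO and 0.433, 0.694 and 1.08 FPKM in BTSO. As for Cs9g17760, the mean of 15 DAS was the lowest of the 5 days in both varieties, and in TBO all libraries of 30 DAS lay above those of 15 DAS. At 60 DAS, the gene had 6.08, 5.20 and 4.94 FPKM in TBO and 0.775, 0.619 and 0.877 FPKM in BTSO. At 90 DAS, it had 5.84, 6.06 and 6.02 FPKM in TBO and 0.684, 0.720 and 1.12 FPKM in BTSO. All TBO libraries of 60 and 90 DAS exceeded all TBO libraries of 0 and 15 DAS. In BTSO only 2 of 15 libraries reached an FPKM of 1, so that Cs9g17770 passed the filter on low values through TBO. The ratio of the means lay between 6.14 and 7.14.

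Cs9g17780, the gene described as ESD4, was the highest of the 4. At 0 DAS, Cs9g17780 had 12.7, 18.9 and 15.8 FPKM in TBO, against 3.16, 3.37 and 2.75 FPKM in BTSO. At 15 DAS, Cs9g17780 had 17.6, 18.5 and 19.4 FPKM in TBO and 2.14, 2.86 and 1.84 FPKM in BTSO. On this day the TBO mean was the highest of the 5 days and the BTSO mean the lowest, whereas the means of Cs9g17760 and Cs9g17770 were lowest in both varieties. At 30 DAS, Cs9g17780 had 14.7, 12.03 and 12.2 FPKM in TBO and 1.96, 3.11 and 2.31 FPKM in BTSO. At 60 DAS, the TBO values were 13.0, 13.4 and 10.4 FPKM and the BTSO values 3.55, 2.91 and 2.68 FPKM. At 90 DAS, TBO had 15.0, 17.9 and 15.7 FPKM and BTSO had 2.67, 2.37 and 3.34 FPKM. All TBO libraries of 30 and 60 DAS lay below those of 15 DAS, and below those of 90 DAS. The ratio of the means was 8.11 at 15 DAS and 4.02 at 60 DAS, its extremes.

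Cs9g17790, with the ubiquitin ligase term, had its TBO group means in the same order of days as Cs9g17780. At 0 DAS, Cs9g17790 had 9.25, 13.6 and 11.9 FPKM in TBO, against 1.91, 2.24 and 1.62 FPKM in BTSO. At 15 DAS, Cs9g17790 had 12.2, 12.8 and 13.6 FPKM in TBO and 1.46, 1.87 and 1.42 FPKM in BTSO. At 30 DAS, Cs9g17790 had 11.2, 11.8 and 9.79 FPKM in TBO and 1.40, 1.99 and 2.68 FPKM in BTSO. The second TBO replicate at 0 DAS was again the highest of its group, as for all 4 genes. At 60 DAS, the TBO libraries had 10.2, 10.2 and 8.90 FPKM and the BTSO libraries 2.87, 2.79 and 2.78 FPKM. At 90 DAS, the TBO libraries had 11.6, 13.1 and 10.7 FPKM and the BTSO libraries 1.71, 2.18 and 2.80 FPKM. The 3 BTSO libraries of 60 DAS stood above all BTSO libraries of 0 and 15 DAS, on the day with the lowest TBO mean. The ratio of the means was also largest at 15 DAS (8.14) and smallest at 60 DAS (3.47).

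**Figure D1:**
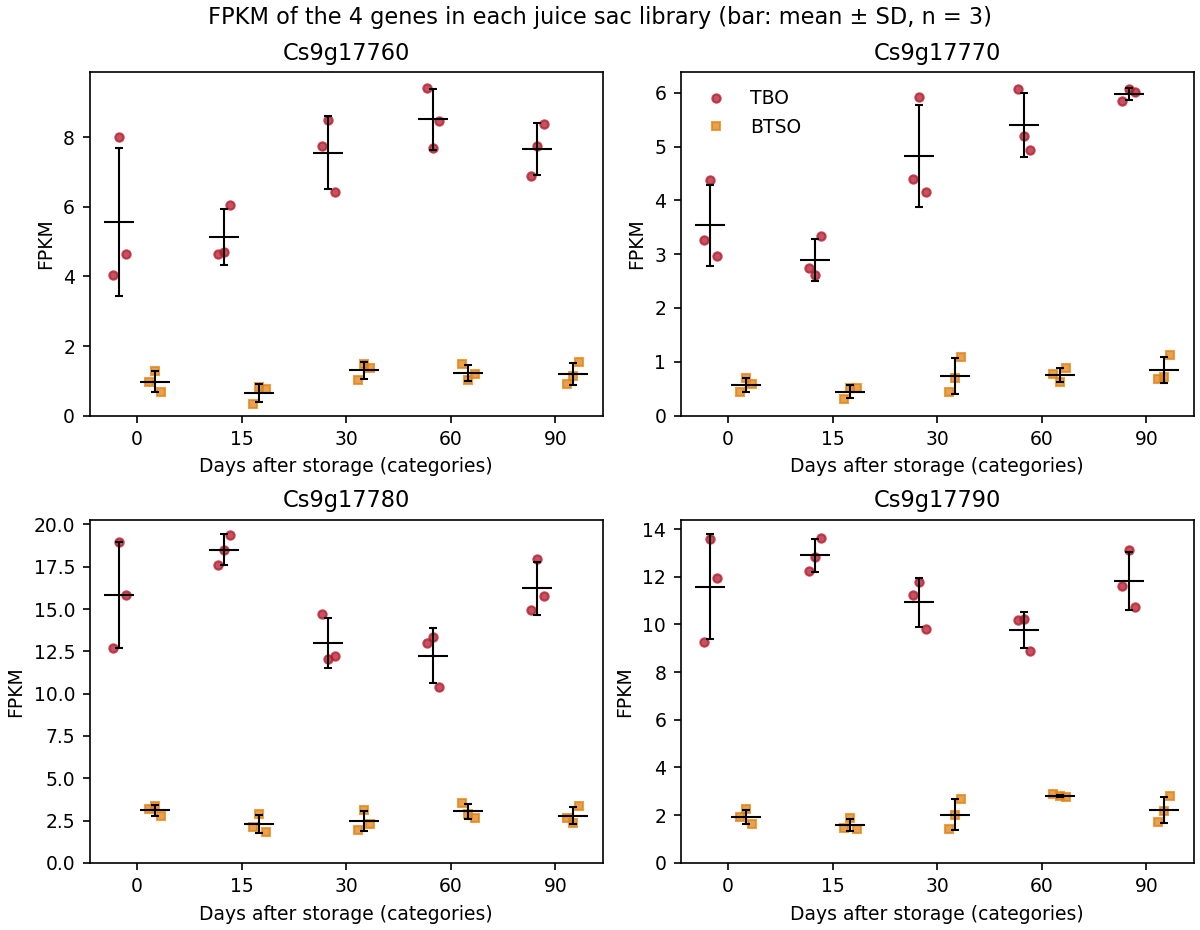
FPKM (y axis, linear from 0) of each gene in each library by days after storage, with TBO as red circles and BTSO as orange squares, and a bar for the mean ± SD of 3 replicates. On every day and for each of the 4 genes the TBO points lie above the BTSO points, with a lowest TBO value of 2.61 FPKM and a highest BTSO value of 1.12 FPKM for Cs9g17770.

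Over all days, the lowest TBO library exceeded the highest BTSO library by 2.61 times for Cs9g17760, 2.32 times for Cs9g17770, 2.92 times for Cs9g17780 and 3.10 times for Cs9g17790. When the 10 groups were ranked by their mean, the 5 TBO groups came before the 5 BTSO groups for each gene. In each of these rankings, 1 of the 9 neighbouring pairs of groups did not overlap, the step from the lowest TBO group to the highest BTSO group. Within a variety, groups next to each other in rank did not differ beyond the spread of their libraries. On the FPKM scale the order Cs9g17780, Cs9g17790, Cs9g17760, Cs9g17770 was seen in 15 of 15 TBO libraries. It was also kept in BTSO, except that Cs9g17790 exceeded Cs9g17780 in 2 of 15 libraries.

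The fitted difference between the varieties on the log2(FPKM + 1) scale, TBO minus BTSO, was smaller than the ratios because the added 1 weighs on low values. It lay between 1.70 and 2.10 for Cs9g17760 (SE 0.176 on each day), 1.43 and 1.93 for Cs9g17770 (SE 0.141), 1.71 and 2.58 for Cs9g17780 (SE 0.146) and 1.50 and 2.43 for Cs9g17790 (SE 0.143). The size depended on the pseudocount most for the low Cs9g17770, whose difference at 15 DAS was 1.43 with a pseudocount of 1, 2.47 with a pseudocount of 0.1, 2.51 in edgeR and 2.52 in DESeq2. The limits of the study (unadjusted p under 0.05 and a log2 difference over 1) were applied here to the fit of limma, whereas the paper used the R package Ballgown. The calls and shares given here are therefore not those of the paper. By these limits, all 4 genes were called higher in TBO on all 5 days. The background is set by the 16578 genes that reached an FPKM of 1 in 3 libraries or more. Of these, 3.90% were called higher on day 0, 5.17% on day 15, 5.56% on day 30, 6.67% on day 60 and 5.95% on day 90, and 1.36% on all 5 days. For the 4 genes and for 14.9% of all tested genes, the 3 TBO values exceeded the 3 BTSO values on each of the 5 days. The genes were selected on this contrast, so that these shares are given as background alone. The median log2 difference of the 4 genes was 1.86, 2.17, 1.95, 1.79 and 1.99 from day 0 to day 90, beside medians over all tested genes of 0.06, 0.13, 0.06, 0.03 and 0.08 on the same days.

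No tested gene flanking the run was called higher in TBO. Of the 10 identifiers on each side, 18 were listed and 11 passed the filter, and of these 11, 8 were called on no day and 3 were called lower in TBO on 1 or 2 days. Over all 16578 tested genes, 3.90% to 6.67% were called higher on a given day, and 626 to 876 genes were called lower on a given day. These are values of single days, whereas the flanking genes were counted over any of the 5 days, so that the 2 are not directly comparable. Whether the 11 flanking genes differ from this background was not tested. Cs9g17750 and Cs9g17800, which adjoin the run, shared 1 description, an uncharacterized protein of clementine, and the first carried a KEGG entry in phenylpropanoid biosynthesis. Both were nearly silent. Cs9g17750 was listed at 0 in 9 of 15 TBO and 11 of 15 BTSO libraries, with highest values of 0.122 FPKM in TBO and 0.311 FPKM in BTSO. Cs9g17800 was listed at 0 in 12 of 15 TBO and 10 of 15 BTSO libraries and reached at most 0.109 FPKM in TBO and 0.151 FPKM in BTSO. With so few fragments, a difference between the varieties was not detectable for these 2 genes.

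On the side of the lower numbers, the expressed genes began with Cs9g17740, an uncharacterized protein, which averaged 20.3 ± 5.41 FPKM in TBO and 18.0 ± 2.97 FPKM in BTSO (SD, n = 15 each over the days). Its log2 difference ranged from -0.03 to 0.33. Cs9g17730, described as a methyltransferase-like protein, averaged 24.9 ± 2.24 FPKM in TBO and 18.3 ± 3.28 FPKM in BTSO. It was the nearest neighbour with a leaning in the direction of the run, with log2 differences of 0.23 to 0.72 and no overlap on 4 of the 5 days, below the log2 limit of 1. Cs9g17720, described as the chloroplast protein translocase component TATB, had 5.65 ± 1.32 FPKM in TBO and 5.86 ± 1.40 FPKM in BTSO. Cs9g17710 (LOC102622119) had 27.9 ± 4.34 FPKM in TBO and 29.9 ± 3.74 FPKM in BTSO. Cs9g17700 and Cs9g17680 shared the description of a mitogen-activated protein kinase kinase kinase YODA, which in Arabidopsis acts in stomatal patterning. They averaged 3.28 ± 0.784 and 3.29 ± 0.815 FPKM in TBO, and 3.06 ± 0.891 and 3.18 ± 1.05 FPKM in BTSO. Apart from Cs9g17730, the means of these 6 genes differed between the varieties by less than the larger SD.

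Farther out, the direction turned for some genes. Cs9g17690, described as a putative transporter arsB, averaged 2.40 ± 0.676 FPKM in TBO and 5.31 ± 1.71 FPKM in BTSO, and was called lower in TBO on 1 day. Cs9g17670, described as the short-chain dehydrogenase TIC 32 of the chloroplast envelope, averaged 2.53 ± 0.701 FPKM in TBO and 6.16 ± 1.86 FPKM in BTSO and was called lower on 2 days, with log2 differences of -1.19 to -0.87. Cs9g17660 was close to 0 in both varieties. On the other side, Cs9g17830 averaged 0.244 ± 0.242 FPKM in TBO and 2.13 ± 2.66 FPKM in BTSO. It was called lower in TBO on 2 days. Cs9g17870 averaged 8.90 ± 1.11 FPKM in TBO and 9.88 ± 1.47 FPKM in BTSO. Cs9g17880 passed the filter with 0.142 ± 0.150 FPKM in TBO and 0.391 ± 0.463 FPKM in BTSO, while Cs9g17820, Cs9g17840, Cs9g17860 and Cs9g17890 were below it. Cs9g17810 and Cs9g17850 were not among the listed identifiers.

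**Figure D2:**
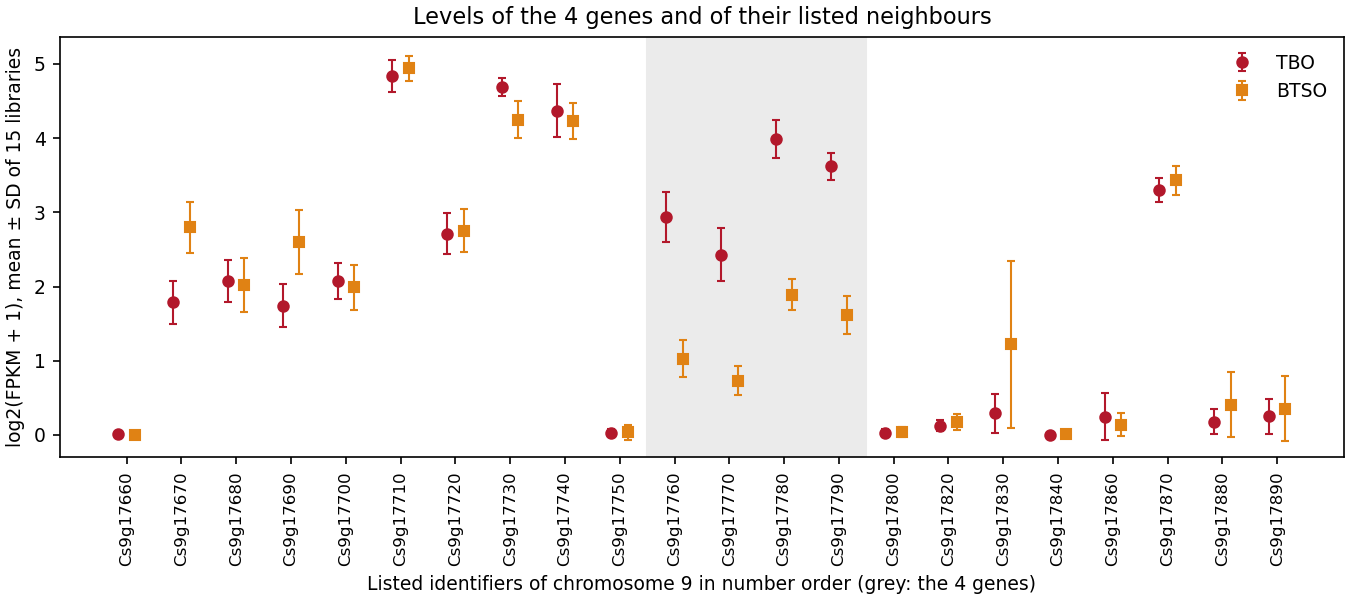
Mean ± SD of log2(FPKM + 1) over the 15 libraries of TBO (red circles) and of BTSO (orange squares) for the 22 listed identifiers in number order, with the run shaded in grey. Inside the grey band TBO lies above BTSO by far more than the SD, for example 3.99 ± 0.259 against 1.89 ± 0.209 for Cs9g17780, and at its edges Cs9g17750 and Cs9g17800 lie near 0 in both varieties.

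Over the whole table, runs of neighbouring identifiers called in the same direction on all 5 days were few. There were 9 runs of 2 or more genes higher in TBO and 6 runs of 2 or more genes lower in TBO. Only 1 run had at least 3 genes, and that was the run of these 4. The longest run of genes lower in TBO had 2 genes. The counts did not differ with adjusted in place of unadjusted p-values or without the filter on low values. Because the 4 genes were chosen as neighbours higher in TBO, these counts are a description and carry no test. Since Cs9g17760 and Cs9g17770 are described as isoforms of 1 locus, the run holds 3 loci by those descriptions.

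**Figure D3:**
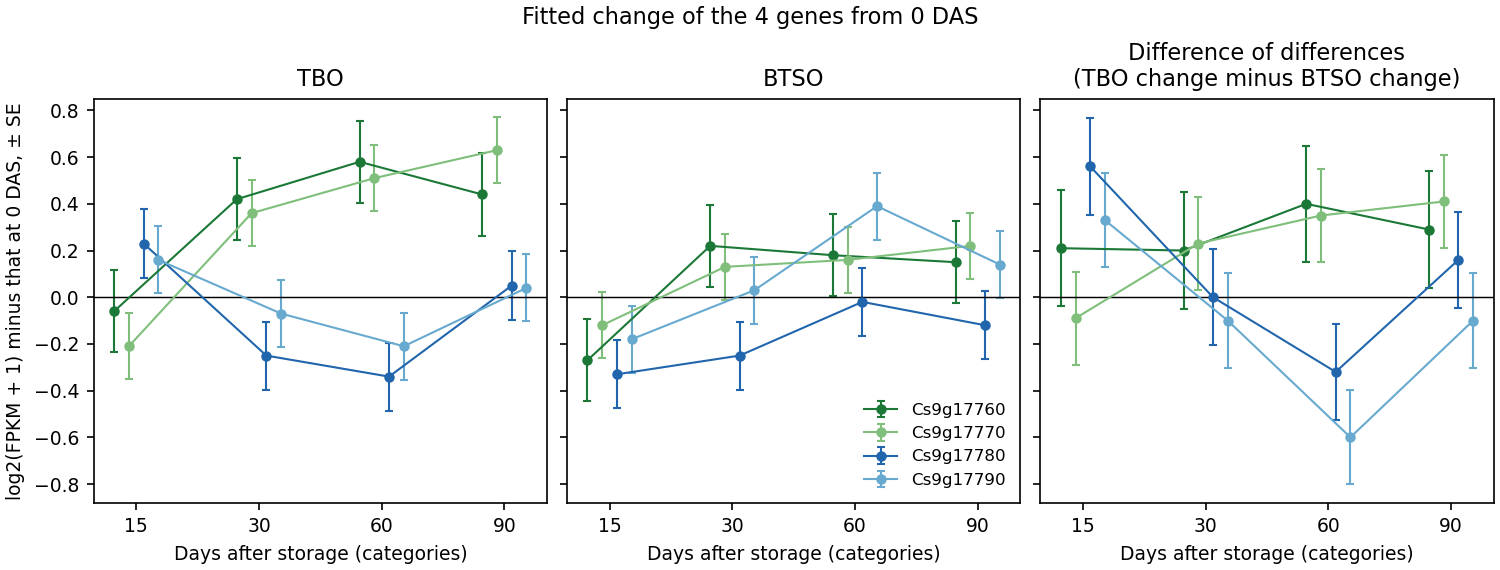
Fitted change of log2(FPKM + 1) from 0 DAS (y axis, ± SE) at 15, 30, 60 and 90 DAS for each gene in TBO (left), in BTSO (middle) and as TBO change minus BTSO change (right). In TBO Cs9g17760 and Cs9g17770 reach 0.44 and 0.63 at 90 DAS, while Cs9g17780 and Cs9g17790 have their lowest values, -0.34 and -0.21, at 60 DAS.

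The change over storage within each variety was tested next. Between 90 and 0 DAS, none of the 4 was called in TBO (adjusted p under 0.05 and a log2 difference over 1), beside 7.24% of all tested genes that were higher at 90 DAS and 3.78% that were lower. In BTSO none was called either, beside 4.31% higher and 2.98% lower over all tested genes. For 2 genes the low start limited this call. In BTSO at 0 DAS, log2(FPKM + 1) was 0.985, 1.19 and 0.744 for Cs9g17760 and 0.527, 0.764 and 0.667 for Cs9g17770. From such levels a mean fall of more than 1 was not possible, and the added 1 dampened any rise. Without the limit on size, limma gave adjusted p-values under 0.05 in TBO for 2 of the 4 genes. Cs9g17770 differed by 0.63 ± 0.141 (SE) between 90 and 0 DAS in TBO, with an adjusted p of 0.000558, and Cs9g17760 by 0.44 ± 0.176 with an adjusted p of 0.0360. The value of Cs9g17760 depended on single libraries, being 0.28 (adjusted p = 0.223) without the first and 0.70 (adjusted p = 0.00113) without the second TBO replicate at 0 DAS. It was 0.31 with an adjusted p of 0.288 in edgeR on the estimated counts. For Cs9g17770 the adjusted p ranged from 0.000541 to 0.0357 over the other settings with all replicates, and from 0.000199 to 0.00601 with a library left out. Cs9g17780 differed by 0.05 ± 0.146 and Cs9g17790 by 0.04 ± 0.143 in TBO, both smaller than their error. The median over all tested genes was 0.16 in this comparison, and 0.00 after quantile normalization, so that part of each positive value is shared by the table as a whole.

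In BTSO the differences between 90 and 0 DAS were 0.15 ± 0.176 for Cs9g17760, 0.22 ± 0.141 for Cs9g17770, -0.12 ± 0.146 for Cs9g17780 and 0.14 ± 0.143 for Cs9g17790, with adjusted p-values from limma of 0.203 to 0.538. Their median was 0.14, beside 0.13 over all tested genes. The variety difference itself, at 90 DAS minus at 0 DAS, changed by 0.29 ± 0.249, 0.41 ± 0.199, 0.16 ± 0.206 and -0.10 ± 0.202 for the 4 genes in the same order (each ± SE). None of these passed an adjusted p of 0.05 (0.190 to 0.817), while 12.4% of the tested genes did. The gap between the varieties after 90 days was thus not shown to differ from that at the start for any of the 4 genes.

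When all 5 days were tested together with the moderated F test of limma, 3 of the 4 genes changed over storage in TBO, beside 68.8% of all tested genes. The adjusted p was 5.27e-05 for Cs9g17770, 0.00646 for Cs9g17760, 0.00871 for Cs9g17780 and 0.191 for Cs9g17790. With a pseudocount of 0.1 (adjusted p = 0.0545) and in edgeR (0.0676) the call of Cs9g17760 was lost, and with quantile normalization Cs9g17790 passed as well (0.0424), so that 2 to 4 of the 4 genes passed in TBO over the settings. For the 2 isoform models the fitted differences from 0 DAS were positive from 30 DAS on. In TBO the differences from 0 DAS of Cs9g17770 were -0.21, 0.36, 0.51 and 0.63 at 15, 30, 60 and 90 DAS (SE 0.141 each), and those of Cs9g17760 were -0.06, 0.42, 0.58 and 0.44 (SE 0.176 each). Cs9g17780 took another course, with 0.23, -0.25, -0.34 and 0.05 (SE 0.146 each). In BTSO 1 of the 4 genes changed, beside 72.4% of all tested genes. This was Cs9g17790 (adjusted p = 0.0161), whose differences from 0 DAS were -0.18, 0.03, 0.39 and 0.14 (SE 0.143 each). The call was lost with quantile normalization (adjusted p = 0.0544). The other 3 genes had adjusted p-values of 0.0843 to 0.170 in BTSO. Cs9g17760 passed there in DESeq2 (0.0147), in edgeR (0.0354), with a pseudocount of 0.1 (0.0148) and without the second TBO replicate at 0 DAS (0.0259), and Cs9g17770 passed with a pseudocount of 0.1 (0.0421).

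The course over storage differed between the varieties for 2 of the 4 genes, Cs9g17780 (adjusted p of the F test 0.0321) and Cs9g17790 (adjusted p = 0.0190), where 22.9% of all tested genes passed. For Cs9g17780 the variety difference of log2(FPKM + 1) was 2.03, 2.58, 2.02, 1.71 and 2.19 from 0 to 90 DAS, and for Cs9g17790 it was 2.10, 2.43, 2.00, 1.50 and 2.00. Both were thus widest at 15 DAS and narrowest at 60 DAS. Compared with 0 DAS, the variety difference of Cs9g17790 changed by -0.60 ± 0.202 (SE) at 60 DAS, with an adjusted p of 0.0457 from limma. For Cs9g17780 no single day passed against 0 DAS, the value at 15 DAS being 0.56 ± 0.206 (SE) with an adjusted p of 0.209. The calls of the F test rested on few libraries. Without the third TBO replicate at 60 DAS neither gene passed (adjusted p = 0.0697 for Cs9g17780 and 0.0537 for Cs9g17790). The call of Cs9g17780 was also lost without the second TBO replicate (0.0592) or the third (0.0715) at 15 DAS, without the first BTSO replicate (0.0647) or the third (0.0836) at 15 DAS, and without the first BTSO replicate at 60 DAS (0.0688). For Cs9g17760 and Cs9g17770 the adjusted p was 0.696 and 0.178. A change in TBO alone was therefore not shown for Cs9g17770, although it passed in TBO and not in BTSO.

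Ratios of 2 genes within a library do not depend on the scaling of that library. Cs9g17770 over Cs9g17760 had a median of 0.645 in TBO (0.547 to 0.849 over 15 libraries) and 0.633 in BTSO (0.425 to 0.877). Cs9g17790 over Cs9g17780 had a median of 0.755 in TBO (0.682 to 0.978) and 0.714 in BTSO (0.589 to 1.16). Pooled over the days, both ratios overlapped between the varieties although the levels did not. On single days this did not always hold, which was not tested. At 15 DAS, Cs9g17770 over Cs9g17760 was 0.550 to 0.590 in TBO and 0.625 to 0.877 in BTSO. At 0 DAS, Cs9g17790 over Cs9g17780 was 0.717 to 0.755 in TBO and 0.589 to 0.665 in BTSO. On the other days the ranges of each of these ratios overlapped. The ratio of Cs9g17780 to Cs9g17760 differed more between the days, which was not tested. In TBO it was 3.16, 2.36 and 3.40 at 0 DAS and 3.79, 3.94 and 3.20 at 15 DAS. The TBO libraries had ratios of 1.90, 1.42 and 1.90 at 30 DAS. Later the ratios were 1.38, 1.74 and 1.22 (60 DAS) and 2.17, 2.32 and 1.88 (90 DAS). No TBO library of 30, 60 or 90 DAS reached the lowest value of the earlier days, though 2.32 at 90 DAS came close to 2.36 at 0 DAS. In BTSO the mean ratio was 3.32 ± 0.727, 4.01 ± 1.96, 1.89 ± 0.208, 2.51 ± 0.341 and 2.39 ± 0.466 (SD, n = 3 each) on the 5 days, again lower at 30 DAS, with ranges that overlapped in part. At 60 DAS the ratio of Cs9g17780 to Cs9g17760 did not overlap between the varieties (1.22 to 1.74 in TBO and 2.23 to 2.89 in BTSO).

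**Figure D4:**
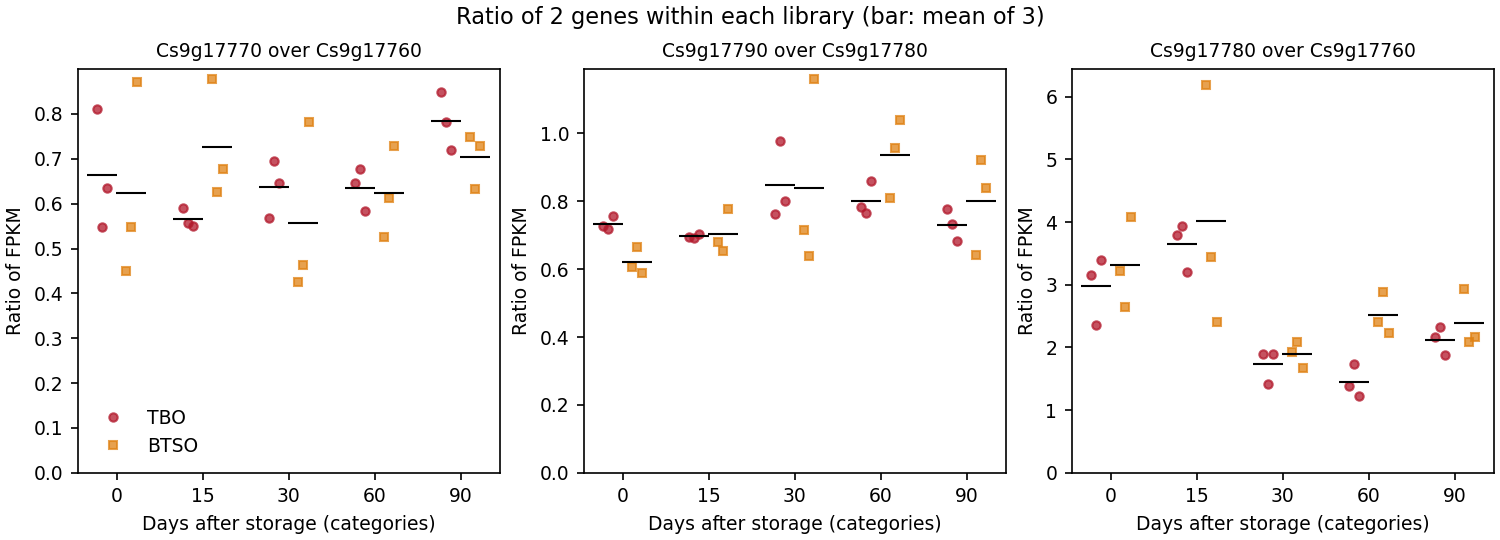
Ratio of the FPKM of 2 genes within each library (y axis, linear from 0) by days after storage, with TBO as red circles, BTSO as orange squares and a bar for the mean of 3. The ratios of Cs9g17770 to Cs9g17760 and of Cs9g17790 to Cs9g17780 overlap between the varieties when the days are pooled. By day, the first does not overlap at 15 DAS and the second does not at 0 DAS. In TBO that of Cs9g17780 to Cs9g17760 is at 2.36 to 3.94 at 0 and 15 DAS. It is at 1.22 to 1.90 at 30 and 60 DAS and at 1.88 to 2.32 at 90 DAS.

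Most pairs of the 4 genes also varied together among replicates. After the mean of each group had been removed from log2(FPKM + 1), 5 of the 6 pairs correlated across the 30 libraries (permutation test within groups, two-sided, adjusted over the 6 pairs). Cs9g17760 and Cs9g17770 had r = 0.75 (p = 0.000260, adjusted p = 0.00156, permutation test) and rho = 0.77 (p = 0.000230, adjusted p = 0.00123). By their descriptions these are models of 1 RefSeq locus, so that this pair does not compare separate genes. Cs9g17780 and Cs9g17790 had r = 0.67 (p = 0.00515, adjusted p = 0.00772) and rho = 0.71 (p = 0.00107, adjusted p = 0.00214). Across the 2 kinds of gene, Cs9g17770 and Cs9g17790 had r = 0.72 (p = 0.00312, adjusted p = 0.00624) and rho = 0.65 (p = 0.00414, adjusted p = 0.00621). Cs9g17760 and Cs9g17790 had r = 0.69 (p = 0.00139, adjusted p = 0.00417) and rho = 0.74 (p = 0.000410, adjusted p = 0.00123), and Cs9g17760 and Cs9g17780 r = 0.62 (p = 0.00801, adjusted p = 0.00961) and rho = 0.60 (p = 0.00587, adjusted p = 0.00704). The sixth pair, Cs9g17770 and Cs9g17780, had r = 0.35 (p = 0.178) and rho = 0.31 (p = 0.203) and did not pass, although the genes adjoin each other.

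Leaving out the 2 libraries farthest from the median of the first gene gave r of 0.73 for Cs9g17760 and Cs9g17770, 0.67 for Cs9g17780 and Cs9g17790, 0.67 for Cs9g17770 and Cs9g17790, 0.60 for Cs9g17760 and Cs9g17790, 0.48 for Cs9g17760 and Cs9g17780, and 0.49 for Cs9g17770 and Cs9g17780. Within TBO the 6 values of r lay between 0.36 and 0.83, and within BTSO between 0.34 and 0.81 (15 libraries each), so that both varieties contributed. For comparison, the median r over 9676 pairs of adjacent tested genes of the table was 0.13, with quartiles of -0.08 and 0.33. Of these pairs, 98.8% had a lower r than Cs9g17760 and Cs9g17770, 97.1% a lower r than Cs9g17780 and Cs9g17790, and 76.5% a lower r than Cs9g17770 and Cs9g17780. The share for Cs9g17760 and Cs9g17770 sets 1 locus by description beside pairs that are mostly listed as separate genes. The points share library preparation and scaling, and quantile normalization left 3 of the 6 pairs past the threshold. The pairs lost there were Cs9g17780 and Cs9g17790 (r = 0.53) and Cs9g17760 and Cs9g17780 (r = 0.48), each with an adjusted p of 0.0523 in the permutation test.

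**Figure D5:**
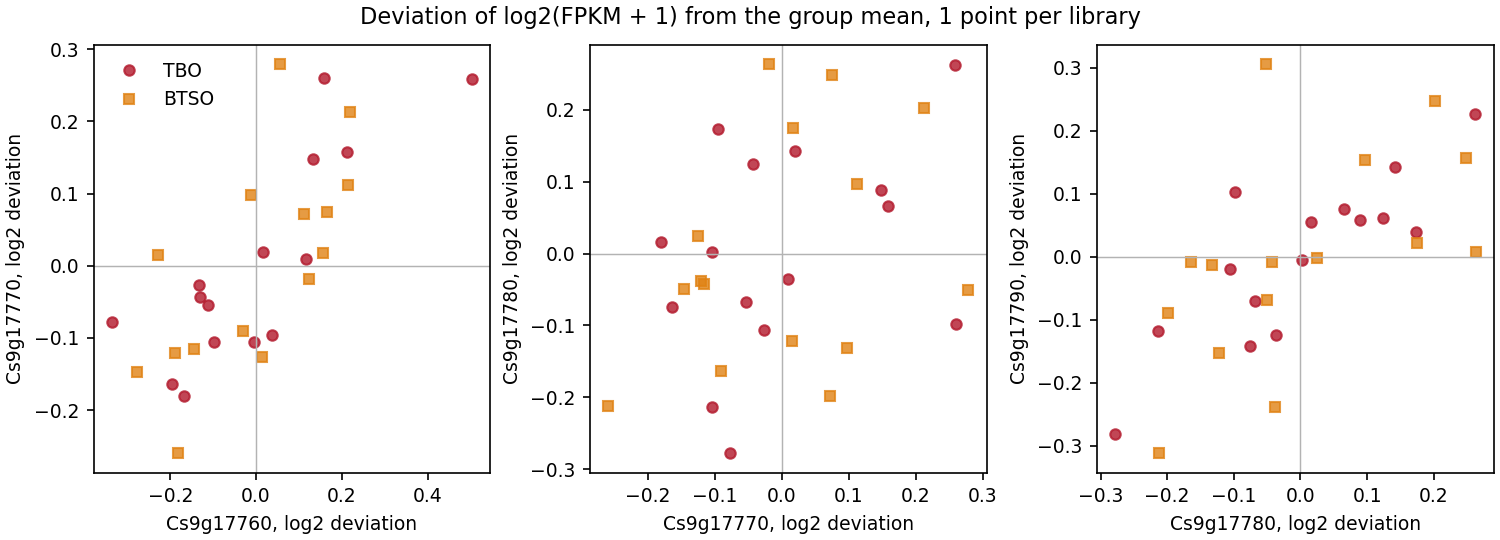
Deviation of log2(FPKM + 1) from the mean of its group for the 3 pairs of adjacent genes, with 1 point per library, TBO as red circles and BTSO as orange squares. Points run along the diagonal for Cs9g17760 and Cs9g17770 (r = 0.75) and for Cs9g17780 and Cs9g17790 (r = 0.67), and scatter more widely for Cs9g17770 and Cs9g17780 (r = 0.35).

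Few other genes with the description of Cs9g17780 were expressed. The table held 17 other rows with exactly this description, ubiquitin-like-specific protease ESD4 without an isoform name. Of these, 14 stayed below an FPKM of 1 in all libraries, and 2 passed the filter. The most expressed was Cs9g07700, which lies on the same chromosome and averaged 22.3 ± 3.36 FPKM in TBO and 24.9 ± 5.63 FPKM in BTSO (SD, n = 15 each), with log2 differences of -0.31 to 0.00. Cs3g02920 averaged 2.33 ± 0.508 FPKM in TBO and 0.815 ± 0.195 FPKM in BTSO and was called higher in TBO on 2 days. Cs4g12045, below the filter, averaged 0.402 ± 0.211 FPKM in TBO and 0.619 ± 0.239 FPKM in BTSO. None of the other rows was called on all 5 days. Cs9g17780 itself had 10.4 to 19.4 FPKM (median 15.0) in TBO and 1.84 to 3.55 FPKM (median 2.75) in BTSO. How reads that fit several of these copies were assigned is not given in the sources used here, so the level of each copy is uncertain. The other 3 genes had descriptions that no other row shared. In a wider list of 36 other rows described as ubiquitin-like-specific or sentrin-specific proteases, chosen after the values had been seen, 10 passed the filter. Only Cs3g02920 of these was called on any day. Except for Cs9g07700 and orange1.1t04131, however, the genes that passed had log2 differences above 0 on all 5 days. They included Cs9g04340, described as ESD4 isoform X1, with 17.6 ± 1.66 FPKM in TBO and 11.4 ± 3.07 FPKM in BTSO. Its log2 differences were 0.41 to 0.95.

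The genes elsewhere in the table whose pattern was most like that of the 4 were, as a consequence of the choice, genes with a wide gap between the varieties. The likeness is Pearson's r over the 30 libraries, which fall into 2 varieties, and is a description. For Cs9g17760 and Cs9g17770 the leading gene was Cs1g20080, described as a P-type magnesium-transporting ATPase (r = 0.977 and 0.973), with 10.5 ± 2.92 FPKM in TBO and 0.379 ± 0.212 FPKM in BTSO. Cs9g17760 was followed by orange1.1t04785 (r = 0.969) and the assembled locus MSTRG.6706 of Cs5g26960 (r = 0.967), and Cs9g17770 by Cs7g17160, described as a potassium channel (r = 0.973), and the same locus of Cs5g26960 (r = 0.969). For Cs9g17780 the leading genes were orange1.1t05130 and orange1.1t00101 (r = 0.981 each) and Cs4g17890 (r = 0.972). For Cs9g17790 they were Cs4g17890 (r = 0.980), Cs8g16530 (r = 0.977) and orange1.1t05130 (r = 0.976). Cs4g17890, described as a TBC1 domain protein, a family that acts on Rab GTPases, averaged 13.2 ± 2.58 FPKM in TBO and 1.38 ± 0.519 FPKM in BTSO. Cs8g16530, described as protein SAND, averaged 28.6 ± 2.95 FPKM in TBO and 10.5 ± 1.39 FPKM in BTSO. By the same measure the gene most like Cs9g17760 in the whole table was Cs9g17770, and the reverse (r = 0.986), and likewise Cs9g17780 and Cs9g17790 were each most like the other (r = 0.987).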

How the data were processed

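After removal of rRNA and poor reads, the authors used StringTie to assemble and merge transcripts and to compute FPKM; the submitters' processing notes list Bowtie 0.12.2, HISAT2 2.0 and StringTie 1.3.0. The deposited table gives FPKM and an estimated count, unnormalized, for 24179 genes in 30 libraries. The paper and the labels name different sequencing instruments. The fit used limma 3.58.1 (R 4.3.3) with a variance trend, group means without covariates, log2(FPKM + 1) of the 16578 genes that reached FPKM 1 in 3 or more libraries, and Benjamini-Hochberg adjustment. Replicates are biological according to the authors. Estimated counts served edgeR 4.0.16 and DESeq2 1.42.0 as alternatives only. The other alternatives were a pseudocount of 0.1, other filters, upper-quartile scaling, quantile normalization, replicate blocks, only 0 and 90 DAS, and each library left out. Deviations were permuted 100000 times within groups with numpy 2.4.6. Simulated data were used to test the TBO comparison of 90 with 0 DAS in limma, edgeR and DESeq2. They also served to test the limma F test of the variety difference and the permutation test.

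The members and lists were chosen with earlier results of these data known. Named are the 4 genes, 10 identifiers on each side, the 3 most similar genes outside, genes sharing a description that were called on all days or the 3 most expressed, and genes of other runs of 4 or more (none was found).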

Additional observations from a re-analysis of the deposited data

Results flagged for a closer look

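The course over storage differed between TBO and BTSO for 2 of the 4 genes, by a test of the difference itself (moderated F test of limma over 5 days). The adjusted p was 0.0321 for Cs9g17780, the gene described as ESD4, and 0.0190 for Cs9g17790, and 22.9% of all tested genes passed. Without the third TBO replicate at 60 DAS neither gene passed (adjusted p = 0.0697 for Cs9g17780 and 0.0537 for Cs9g17790). Both had their widest gap between the varieties at 15 DAS and their narrowest at 60 DAS. Groups of 3 libraries were too small for the search for single outlying samples.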

How the results depend on the processing

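The count of member and day combinations called higher in TBO was 20 of 20 under every setting, and it was 20 with a replicate block. The size of all 20 differences moved upward with a pseudocount of 0.1 (1.76 to 2.99), in edgeR (1.74 to 2.85) and in DESeq2 (1.76 to 2.86), by over 1.5 times for Cs9g17770 at 0 and 15 DAS in all of these. Between 90 and 0 DAS no member was called in either variety under any setting, but the number over all tested genes moved from 1826 in TBO to 2942 with a pseudocount of 0.1, 2846 in edgeR and 2888 in DESeq2, and from 1209 in BTSO to 2202, 2123 and 2212. Members with any change in TBO numbered 3 as reported, 2 with a pseudocount of 0.1, 2 in edgeR and 4 with quantile normalization. Those in BTSO numbered 1 as reported, 3 with a pseudocount of 0.1, 2 in edgeR, 2 in DESeq2 and 0 with quantile normalization, and 1 to 2 with a library left out. Members whose variety difference changed over the days numbered 0 to 2 with a library left out, and 2 under every other setting. Of the deviation pairs, 5 passed as reported and 3 with quantile normalization. Small differences turned sign. In TBO between 90 and 0 DAS, Cs9g17780 was at -0.12 in DESeq2 and edgeR, -0.08 with quantile normalization and -0.06 with upper-quartile scaling, and Cs9g17790 at -0.13, -0.10 and -0.07. With a library left out they ranged from -0.09 to 0.18 and from -0.10 to 0.15. In BTSO quantile normalization gave -0.02 for Cs9g17760 and -0.06 for Cs9g17790. The change of the variety difference of Cs9g17790 ranged from -0.24 to 0.03 with a library left out. The cause was not tested. At 15 DAS, 57.8% of the calls between varieties were higher in TBO, against 38.2% with upper-quartile scaling, and in TBO 65.7% of the calls between 90 and 0 DAS were higher, against 49.5% with quantile normalization. Deviations of same-numbered replicates correlated by -0.11 to 0.18, over 0.1 in 4 of 21 pairs, so the numbers were not taken as pairs, and the replicate block changed no call of a member (3 in TBO and 1 in BTSO by the F test). Low levels in BTSO limit the precision of Cs9g17770.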
